A study of Mus musculus with 6 samples.

Results

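The 47 genes described here act in the cell division cycle, from G1 cyclins to centromere proteins, and were followed in bulk RNA of glioma-prone mouse optic nerve. They were taken by symbol from a table of transcript abundances after transcripts were summed to genes, and all 47 were found among 35850 genes. By role, 7 belonged to the G1 cyclins, kinases and E2f1, 14 to DNA replication and nucleotide supply, 13 to mitotic kinases, cyclins and checkpoint proteins, 11 to the spindle, centromere and chromosome structure, and 2 to chromatin and tubulin binding. The mitotic kinase group and the spindle group are together called the 24 mitotic members. The 6 libraries came from optic nerves of 6-week-old mice of the genotype GFAP-Cre; Nf1-Flox/R681X. One Nf1 copy thus bears the R681X mutation and the other is floxed, so that Cre removes it where the GFAP promoter is or was active, as in astrocytes and their precursors. Of these, 3 libraries were from the control diet (PicoLab 5053) and 3 from the obesogenic diet (AIN-76A based, with sucrose and with fat supplying 58% of energy), and the series title calls the exposure maternal. All 6 libraries share the Nf1 alleles and the Cre, so no comparison with a nerve that does not form glioma was made, and the design addresses the effect of diet alone. The labels do not say whether libraries came from separate animals, pools or litters, and p-values therefore measure only how far these samples spread, and that spread may be technical.

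Cells enter the cycle when D-type cyclins with Cdk4 and E-type cyclins with Cdk2 inactivate the retinoblastoma protein and free E2F factors, which switch on genes for DNA replication. Genes needed for mitosis peak later and are held down in resting cells by the DREAM complex, which binds short promoter elements called E2F sites and cell cycle genes homology regions (CHR). Neurofibromin, the product of Nf1, restrains RAS, and RAS signalling raises cyclin D1. In a young optic nerve most cells are differentiated glia, and dividing cells can include oligodendrocyte precursors, astrocytes, microglia and vascular cells, as well as any immune cells that enter.

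Values are TPM, a unit that corrects for transcript length and carries no sequencing depth, so the number of reads behind a value is unknown. A value of 0 means that the gene was listed at 0. Between 13824 and 14514 genes reached 1 TPM per library, and no pair of libraries held identical values. Nf1 itself measured 3.68 ± 0.595 TPM with the control and 2.40 ± 0.740 TPM with the obesogenic diet (SD, n = 3; adjusted p = 0.647 by limma), which does not check the labels because both diets carry the same alleles. Markers of the nerve's main cells were present in every library, with the 10 oligodendrocyte markers summing to between 27147 and 70160 TPM and the 10 astrocyte markers to between 2874 and 7574 TPM. Obesogenic library 2 stood apart, since immunoglobulin genes took 20.6% of its listed TPM and at most 0.0439% of any other library. Results are therefore given by library, and a printed log2 difference is followed by its value without this library where the gene was still tested and the value changed sign or moved by over 1.5 times.

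Across the 47 genes, most dividing-cell transcripts were low in all libraries and no gene passed the test between diets. The highest control means belonged to Ccnd2 (89.9 TPM), Cdk4 (82.2 TPM), Stmn1 (69.4 TPM) and Pcna (62.0 TPM). With all listed transcripts summed, no mitotic member had a control mean above the 4.90 TPM of Cenpa. Of the 47, 36 reached 1 TPM in at least 3 libraries and were tested as obesogenic minus control as log2(TPM + 1), a scale that understates differences of low genes. None of the 36 passed at an adjusted p of 0.05 (limma with Benjamini-Hochberg adjustment over 14364 genes, smallest adjusted p among members 0.439), where 0.00696% of all genes tested passed. At an unadjusted p under 0.05 there was 1 member, Ccne1, which was higher, as were 5.97% of all genes tested. The obesogenic mean was higher in 32 of the 47 and lower in 15, against 57.7% higher among all genes tested. Without obesogenic library 2 it was higher in 19 and lower in 28, and the sign differed in 17 of the 47. The median log2 difference was 0.16 over the 47 members and 0.08 over all genes tested. It was -0.14 for the G1 members, 0.09 for the replication members and 0.42 for the mitotic members.

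The 3 obesogenic libraries did not share a pattern. Against the mean of the control libraries, the members' median log2 difference was 0.00 in obesogenic library 1, 0.83 in library 2 and -0.25 in library 3. The same medians over all genes tested were 0.19, -0.16 and 0.14. In library 2, 29 of the 47 members lay above all control libraries and 3 below, where 22.7% of all genes tested lay above and 44.2% below. In library 1, 11 members lay above the controls and 12 below, against 46.5% and 18.0% of all genes tested. In library 3 the counts were 8 above and 16 below, against 43.4% and 27.7%. Libraries 1 and 3 thus held fewer members above the control range than their backgrounds, and library 2 held more. Without library 2, 860 genes passed across the table, 685 higher (4.89%) and 175 lower (1.25%). Of the 34 members tested, 0 passed (smallest adjusted p 0.159 by limma), and 34 genes are too few to set this apart from those shares. The members' median difference was then -0.04.

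**Figure D1:**
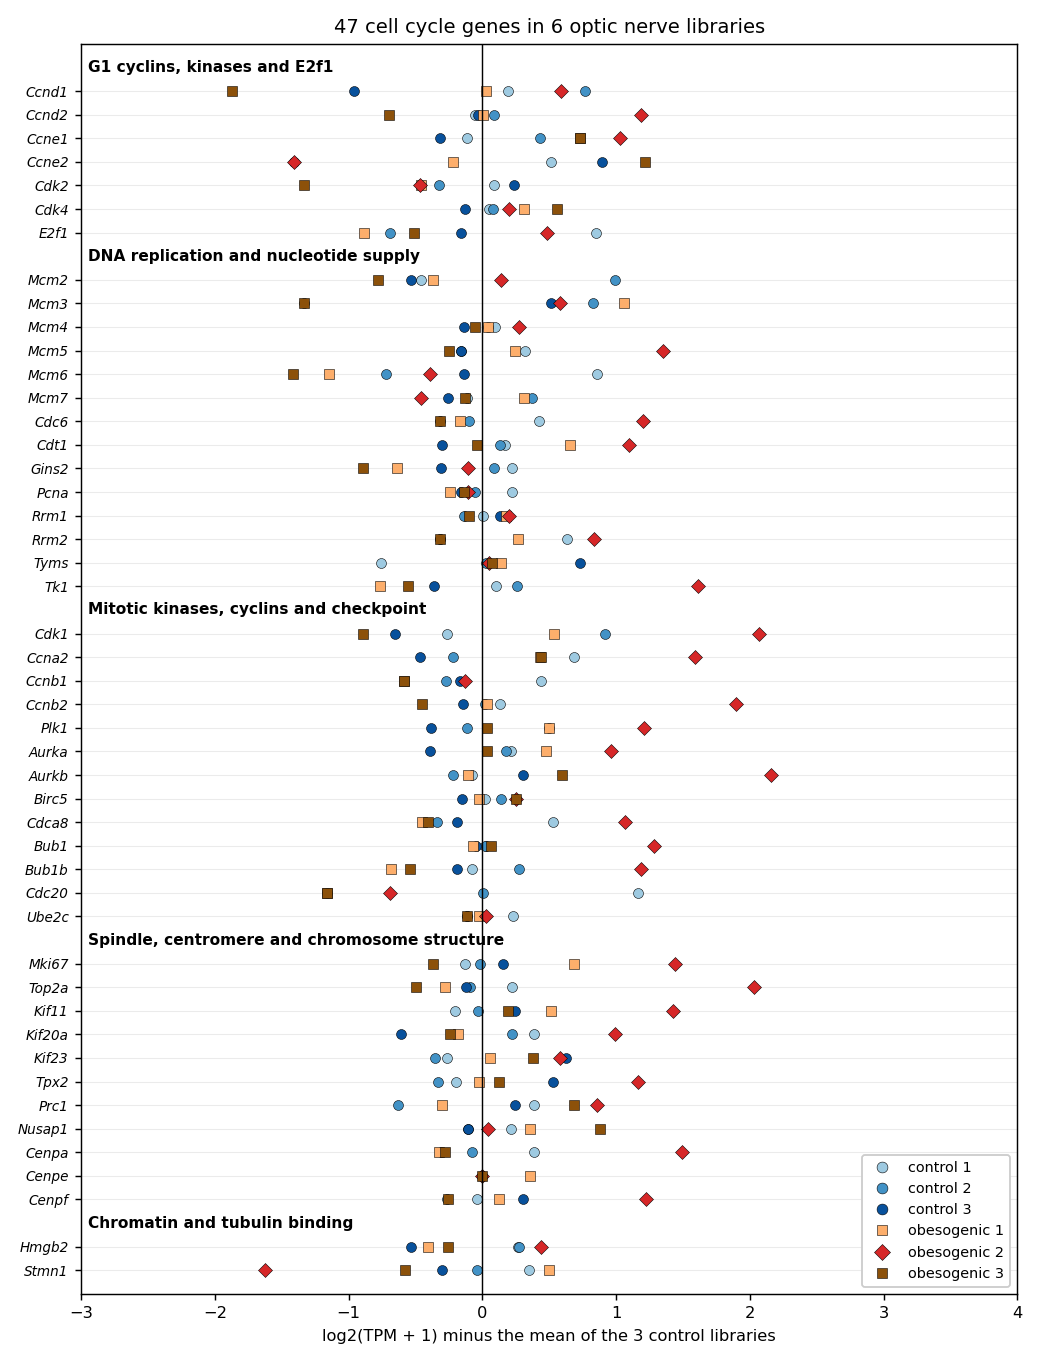
Each point is the log2(TPM + 1) of 1 library minus the mean of the 3 control libraries, for the 47 genes ordered by role (blue circles, control; orange and brown squares, obesogenic libraries 1 and 3; red diamonds, obesogenic library 2). Most mitotic genes have their red diamond to the right of all other points, while the other obesogenic libraries mix with the controls.

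Among the G1 genes, 3 of 7 had obesogenic libraries that did not overlap the controls, Ccne1 and Cdk4 higher (8.88% of all genes tested) and Cdk2 lower (7.45%), and none passed the test. They were the only such genes among all 47 members, 2 higher and 1 lower. Over the 47, both counts were below those shares of all genes tested. Ccne1, the E-type cyclin that activates Cdk2 at the entry to S phase, was at 1.42, 2.54 and 1.11 TPM in control libraries 1 to 3 and at 3.36, 4.34 and 3.35 TPM in obesogenic libraries 1 to 3. Every obesogenic value exceeded every control value, library 2 by the most. The log2 difference was 0.83 (SE 0.34, limma unadjusted p = 0.0418, adjusted p = 0.439). Cdk2, its partner kinase, went the other way, at 6.96, 5.0 and 7.84 TPM in control libraries against 4.47, 4.44 and 1.97 TPM in obesogenic libraries. The 3 obesogenic values were all below the lowest control, libraries 1 and 2 only narrowly so (log2 difference -0.75, SE 0.36, limma adjusted p = 0.506). Cdk4, the kinase of D-type cyclins, was at 85.1, 86.7 and 74.8 TPM in control libraries against 102, 94.1 and 121 TPM in obesogenic libraries (log2 difference 0.35, SE 0.18, limma adjusted p = 0.513). Its groups were separated as well, but this rested on transcripts that are not annotated as coding. The listed coding transcripts of Cdk4 summed to 23.4, 15.3 and 25.3 TPM in control libraries against 34.7, 20.6 and 23.5 TPM in obesogenic libraries, which overlap. For Cdk2 the coding sums also overlapped, from 2.84 to 6.6 TPM in control libraries against 1.09 to 2.86 TPM in obesogenic libraries. For Ccne1 they remained apart, at most 2.19 TPM in control libraries against at least 3.35 TPM in obesogenic libraries. Marker lists of other cells were separate between diets as well. The 10 meningeal fibroblast markers summed to between 1559 and 2255 TPM in control libraries and between 603 and 765 TPM in obesogenic libraries, and all 10 were lower at an unadjusted p under 0.05 (median log2 difference -1.45). The 9 endothelial markers summed to between 593 and 972 TPM against 327 to 386 TPM, with 7 of 9 lower at that p (median -1.02). The 10 neuron markers summed to between 132 and 240 TPM against 250 to 1492 TPM, with 7 of 10 higher (median 1.86). The 10 oligodendrocyte markers summed to between 62174 and 70160 TPM against 27147 to 55474 TPM, with 4 of 10 lower (median -0.61). At an unadjusted p under 0.05, 718 of the 14364 genes tested were lower and 857 higher. No marker of these lists passed at an adjusted p of 0.05 (limma, smallest adjusted p 0.119). No marker of these lists was at 0 in any library. Their part in the values of Ccne1, Cdk2 and Cdk4 was not tested.

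The D-type cyclins differed in their spread. Ccnd1, the cyclin that couples growth factor signals to the cycle, was at 38.3, 57.7 and 16.7 TPM in control libraries against 34.1, 50.6 and 8.38 TPM in obesogenic libraries. With all listed transcripts summed, in both diets the sample numbered 2 was highest and the one numbered 3 lowest. The spread was wide, and the diets overlapped (log2 difference -0.42, SE 0.69, limma adjusted p = 0.875; -0.92 without obesogenic library 2). In obesogenic library 2, 22.4 TPM came from a transcript with a retained intron. Coding Ccnd1 was at 34.7, 49.1 and 13.1 TPM in control libraries against 33.2, 27.8 and 8.38 TPM in obesogenic libraries, where library 1 was highest. Ccnd2, a second D-type cyclin, was nearly constant among controls at 86.4, 95.6 and 87.6 TPM but at 89.8, 205 and 54.9 TPM in obesogenic libraries. Its obesogenic values lay within, above and below the control range (log2 difference 0.16, SE 0.43, limma adjusted p = 0.923; -0.35 without library 2). E2f1, a transcription factor that switches on replication genes, ranged from 0.550 to 3.51 TPM in control libraries against 0.357 to 2.5 TPM in obesogenic libraries. Ccne2, the other E-type cyclin, was listed at 0 in library 2 of each diet and otherwise between 1.27 and 5.15 TPM.

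Genes of DNA replication went both ways, with medians of the per-gene log2 difference from the control mean of 0.09, 0.24 and -0.28 in obesogenic libraries 1, 2 and 3. None of the 12 tested passed, and 9 of the 14 had a higher and 5 a lower obesogenic mean. Pcna, the sliding clamp of the replicative polymerases, was at 72.1, 59.2 and 54.9 TPM in control libraries against 52.0, 57.0 and 56.0 TPM in obesogenic libraries. It was the most abundant replication member and its obesogenic values stayed close to the lower controls (log2 difference -0.16, SE 0.18, limma adjusted p = 0.792). Rrm1, the large subunit of ribonucleotide reductase, which makes deoxynucleotides, was similarly even, between 15.7 and 19.1 TPM in control libraries and between 16.1 and 20.1 TPM in obesogenic libraries (log2 difference 0.09, SE 0.22, limma adjusted p = 0.914; 0.04 without library 2).

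The 6 members of the MCM helicase, which unwinds DNA ahead of the replication fork, did not share a pattern across libraries. Mcm4 was at 21.6, 20.8 and 18.2 TPM in control libraries against 20.7, 24.6 and 19.3 TPM in obesogenic libraries, a narrow range across all 6. Mcm5 was at 6.75, 4.55 and 4.55 TPM in control libraries against 6.35, 14.8 and 4.22 TPM in obesogenic libraries. Library 2 was 2.19 times the next library for Mcm5, and the other obesogenic libraries lay within or below the controls (log2 difference 0.45, SE 0.45, limma adjusted p = 0.770; 0.00 without library 2). Mcm2 had its highest value, 22.3 TPM, in control library 2, with the other 5 libraries between 5.85 and 12 TPM. Of that value 12.6 TPM came from a transcript marked for nonsense-mediated decay, and coding Mcm2 was highest in obesogenic library 2 at 11.5 TPM. Mcm6 was highest in control library 1 at 3.85 TPM and at most 1.42 TPM elsewhere (log2 difference -0.99, SE 0.51, limma adjusted p = 0.527). The 3.85 TPM came from 1 transcript with a retained intron, whereas coding Mcm6 was 0 in that library and highest in obesogenic library 2 at 1.03 TPM. Mcm7 ranged from 5.96 to 11.4 TPM and Mcm3 from 0 to 4.25 TPM, each overlapping between diets. For Mcm3, Mcm6 and Mcm7 the transcript that annotators rank as principal was not among those listed.

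Several low replication genes were highest in obesogenic library 2. Tk1, the thymidine kinase of S-phase cells, was at 4.65, 5.33 and 3.11 TPM in control libraries against 2.10, 15.1 and 2.59 TPM in obesogenic libraries. Library 2 was 2.84 times the next library, while obesogenic libraries 1 and 3 were the lowest of the 6 (log2 difference 0.10, SE 0.64, limma adjusted p = 0.969; -0.66 without library 2). Cdt1, which loads the helicase at origins, was at 3.16, 3.05 and 2.00 TPM in control libraries against 4.82, 6.92 and 2.59 TPM in obesogenic libraries (log2 difference 0.57, SE 0.39, limma adjusted p = 0.649; 0.30 without library 2). Its partner Cdc6 did not pass the filter, at 1.33, 0.623 and 0.396 TPM in control libraries against 0.553, 3.00 and 0.396 TPM in obesogenic libraries. In both genes library 2 was the highest of all. Gins2, part of the active helicase, had a lower obesogenic mean, with 5.96 to 9.04 TPM in control libraries against 3.65 to 7.02 TPM in obesogenic libraries (log2 difference -0.55, SE 0.33, limma adjusted p = 0.597). Most of Gins2 came from 2 transcripts with retained introns, and its coding transcript was at 2.12, 0.859 and 0.357 TPM against 4.54, 0.805 and 0 TPM, so that its obesogenic mean was the higher. Tyms, which makes thymidylate, varied among controls from 2.98 to 10.2 TPM and in obesogenic libraries only from 5.98 to 6.41 TPM. Most of this came from transcripts not annotated as coding. Coding Tyms was at 1.35, 0 and 1.28 TPM in control libraries against 0, 0.383 and 0 TPM in obesogenic libraries. Rrm2, the regulated subunit of ribonucleotide reductase, was at most 1.21 TPM in any library, and its principal transcript was not among those listed.

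The promoters of replication and mitotic members are shown for the short elements that were counted in them. Sequences are from RefSeq on the GRCm38.p6 build, 5′ to 3′ on the gene's strand, and give the 250 bases before the annotated start. Capitals mark E2F letters (TTTCCCGC, TTTGGCGC or TTTCGCGC on either strand) in the 2 replication genes Mcm5 (chr8:75109259-75109508, plus strand) and Cdc6 (chr11:98907901-98908150, plus strand).
Mcm5: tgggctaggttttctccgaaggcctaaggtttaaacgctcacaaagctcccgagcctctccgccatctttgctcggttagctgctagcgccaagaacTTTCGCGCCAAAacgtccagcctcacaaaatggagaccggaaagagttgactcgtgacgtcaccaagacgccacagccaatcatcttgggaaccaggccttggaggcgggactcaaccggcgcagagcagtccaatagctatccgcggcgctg
Cdc6: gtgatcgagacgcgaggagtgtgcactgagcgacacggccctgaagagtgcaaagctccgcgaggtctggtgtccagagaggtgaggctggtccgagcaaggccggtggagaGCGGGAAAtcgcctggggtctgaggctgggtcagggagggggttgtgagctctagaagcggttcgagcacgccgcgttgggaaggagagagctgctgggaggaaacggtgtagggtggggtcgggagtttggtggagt
In Mcm5 a TTTCGCGC that begins 153 bases before the start overlaps a TTTGGCGC read on the other strand, and in Cdc6 a TTTCCCGC on the other strand begins 138 bases before the start. Windows of 250 bases before to 50 after the start were matched for 37 of the 47 members. E2F letters were found in 6 of 12 replication promoters (50%), in 1 of 20 mitotic promoters (5%) and in 3.8% of the promoters of 10685 tested genes.

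Of the 24 mitotic members, 18 had their highest value of the 6 libraries in obesogenic library 2, where 12.7% of all genes tested and 16.1% of tested genes with a mean of 1 to 10 TPM were highest in that library. This library was singled out after the values were seen, and the count is a description without a test. Of the 24, 11 were at least 2 times the next library there, against 4.07% of all genes tested. The medians of the per-gene log2 difference from the control mean were -0.02, 1.18 and -0.06 in obesogenic libraries 1, 2 and 3. In library 1, 5 mitotic members lay above the control range and 6 below, in library 3, 5 above and 7 below, and in library 2, 18 above and 0 below. None of the 15 tested passed the comparison of diets (smallest adjusted p 0.582 by limma), and without library 2 the median difference over the 24 was 0.02. Because the RNA is from bulk tissue, more dividing cells and more of these transcripts per dividing cell cannot be told apart.

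Kinases and cyclins of mitosis showed this in most members. Cdk1, the kinase that drives entry into mitosis, was at 3.04, 8.14 and 2.08 TPM in control libraries against 6.03, 19.3 and 1.61 TPM in obesogenic libraries. Library 2 was 2.37 times the next, and the other obesogenic libraries lay within or below the controls (log2 difference 0.57, SE 0.77, limma adjusted p = 0.837; -0.18 without library 2). Its listed coding transcripts alone gave 2.79, 1.90 and 2.08 TPM in control libraries against 1.56, 8.68 and 1.61 TPM in obesogenic libraries, with the same library highest. Ccnb2, a B-type cyclin that binds Cdk1, was at 2.18, 1.94 and 1.63 TPM in control libraries against 1.97, 9.83 and 1.13 TPM in obesogenic libraries. Library 2 was 4.51 times the next library and the other 5 were close together (log2 difference 0.49, SE 0.60, limma adjusted p = 0.814; -0.21 without it). Ccna2, the cyclin of S phase and G2, was at 4.67, 2.03 and 1.55 TPM in control libraries against 3.74, 9.63 and 3.78 TPM in obesogenic libraries. All 3 obesogenic values exceeded 2 of the controls and library 2 exceeded all 3 (log2 difference 0.82, SE 0.47, limma adjusted p = 0.582; 0.43 without it).

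The Aurora and Polo kinases were likewise highest in library 2. Aurkb, the catalytic subunit of the chromosomal passenger complex, was at 1.38, 1.16 and 2.11 TPM in control libraries against 1.34, 10.3 and 2.80 TPM in obesogenic libraries. Library 2 was 3.66 times library 3, the next highest (log2 difference 0.88, SE 0.58, limma adjusted p = 0.639; 0.24 without library 2). Aurka, which acts at spindle poles, reached 4.18 TPM in library 2 against 1.03 to 2.71 TPM in the other 5 libraries. Plk1, a kinase of centrosome maturation and cytokinesis, reached 4.35 TPM against 0.772 to 2.28 TPM. Cdca8, another passenger complex subunit, reached 9.30 TPM against 2.59 to 6.09 TPM, while Birc5 in the same complex was at most 0.612 TPM anywhere and lacked its principal transcript in the table.

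Among checkpoint genes and those of mitotic exit, Bub1 and Bub1b were highest in library 2, and Cdc20, Ccnb1 and Ube2c were not. Bub1, a checkpoint kinase at kinetochores, was at 0.407, 0.397 and 0.331 TPM in control libraries against 0.311, 2.35 and 0.439 TPM in obesogenic libraries. It was not tested because only library 2 reached 1 TPM, where it was 5.34 times the next library, the largest such ratio among the members. Bub1b, its relative in the checkpoint complex, was at 1.25, 1.86 and 1.08 TPM in control libraries against 0.477, 4.4 and 0.629 TPM in obesogenic libraries. Library 2 was highest while obesogenic libraries 1 and 3 fell below every control (log2 difference -0.01, SE 0.54, limma adjusted p = 0.996; -0.61 without library 2). By contrast Cdc20, the activator of the anaphase-promoting complex, was at 4.02, 1.25 and 0 TPM in control libraries against 0, 0.386 and 0 TPM in obesogenic libraries. All of the Cdc20 value came from 1 transcript with a retained intron. Ccnb1 and Ube2c, a second B-type cyclin and the ubiquitin-conjugating enzyme of the same pathway, were at most 1.03 and 0.267 TPM. In these 3 genes control library 1 was highest, and for none was the principal transcript listed.

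The 11 spindle, centromere and chromosome genes all had a higher obesogenic mean, against 57.7% of all genes tested, and 8 were highest in library 2. Without library 2 the obesogenic mean was higher in 7 and lower in 4. Top2a, the topoisomerase that untangles sister chromatids, was at 3.72, 2.80 and 2.73 TPM in control libraries against 2.34, 15.6 and 1.87 TPM in obesogenic libraries. Library 2 was 4.2 times the next library, and libraries 1 and 3 were the lowest of the 6 (log2 difference 0.42, SE 0.66, limma adjusted p = 0.869; -0.39 without library 2). Mki67, the proliferation marker that coats mitotic chromosomes, was at 0.595, 0.722 and 0.938 TPM in control libraries against 1.81, 3.74 and 0.353 TPM in obesogenic libraries. Here libraries 1 and 2 exceeded all controls and library 3 lay below them, and the gene did not pass the filter. Kif11, the motor that separates spindle poles, was at 0.714, 0.930 and 1.34 TPM in control libraries against 1.82, 4.31 and 1.26 TPM in obesogenic libraries (log2 difference 0.71, SE 0.41, limma adjusted p = 0.583; 0.35 without library 2). Libraries 1 and 2 again exceeded all controls, and library 3 was inside the control range. Cenpa, the histone variant that marks centromeres, was at 6.56, 4.46 and 3.67 TPM in control libraries against 3.61, 15.2 and 3.75 TPM in obesogenic libraries, with library 2 alone above the controls (log2 difference 0.29, SE 0.54, limma adjusted p = 0.886; -0.30 without it). Most of Cenpa came from transcripts not annotated as coding. Coding Cenpa was at 1.83, 1.32 and 1.27 TPM in control libraries against 0, 4.63 and 0.631 TPM in obesogenic libraries.

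Of the remaining 7 spindle genes, 4 were highest in library 2. Tpx2, which builds microtubules around chromatin, reached 5.61 TPM in library 2 and 1.33 to 3.25 TPM in the other 5 libraries. Kif20a, a motor of cytokinesis, reached 4.71 TPM against 0.879 to 2.75 TPM. Cenpf, a kinetochore protein of G2 and mitosis, reached 3.04 TPM against 0.442 to 1.14 TPM. All 3 thus had a gap between library 2 and the rest. Prc1, which bundles the central spindle, was at 7.59 TPM in library 2 and 6.6 TPM in library 3, close to the 5.19 TPM of control library 1. Kif23, another motor of cytokinesis, was highest in control library 3 at 3.87 TPM with library 2 next at 3.71 TPM. Its coding transcripts alone were highest in library 2, at 3.21 TPM against 0.152 to 1.62 TPM elsewhere. Nusap1 and Cenpe, a microtubule-binding protein and a kinetochore motor, were at most 0.983 and 0.277 TPM and their principal transcripts were not listed.

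**Figure D2:**
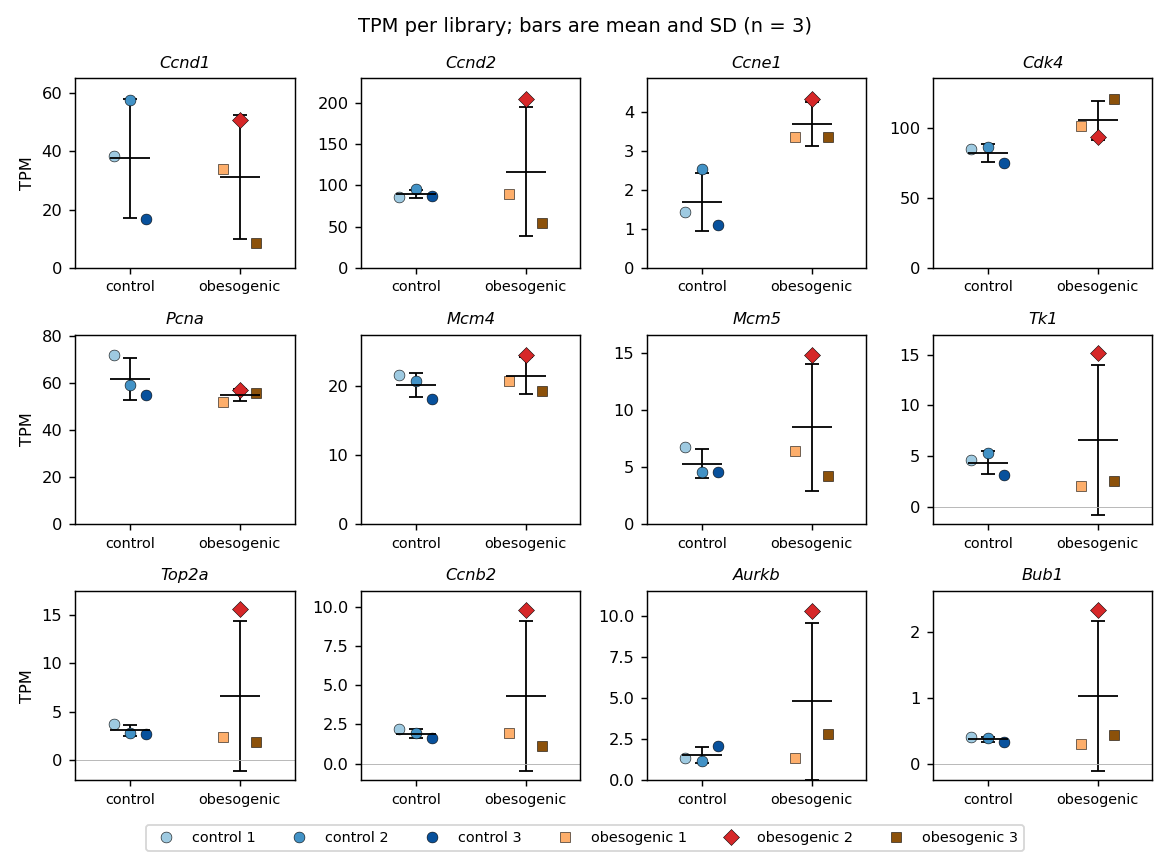
TPM of 12 members in each library (circles, control; squares and red diamond, obesogenic), with the mean as a long bar and the SD as whiskers (n = 3 per diet). With all listed transcripts summed, Ccne1 and Cdk4 separate the diets, whereas Top2a, Ccnb2, Aurkb and Bub1 are high in obesogenic library 2 alone, so that their obesogenic SD exceeds the mean or nearly equals it.

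Hmgb2, a chromatin protein of dividing cells, ranged from 17.6 to 31.5 TPM in control libraries against 19.3 to 35.6 TPM in obesogenic libraries. Stmn1, which destabilises microtubules and is also abundant in neurons, was at 87.0, 66.3 and 55.0 TPM in control libraries against 96.5, 21.4 and 45.4 TPM in obesogenic libraries. Unlike most members it was lowest in library 2 (log2 difference -0.57, SE 0.50, limma adjusted p = 0.732; -0.04 without it).

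**Figure D3:**
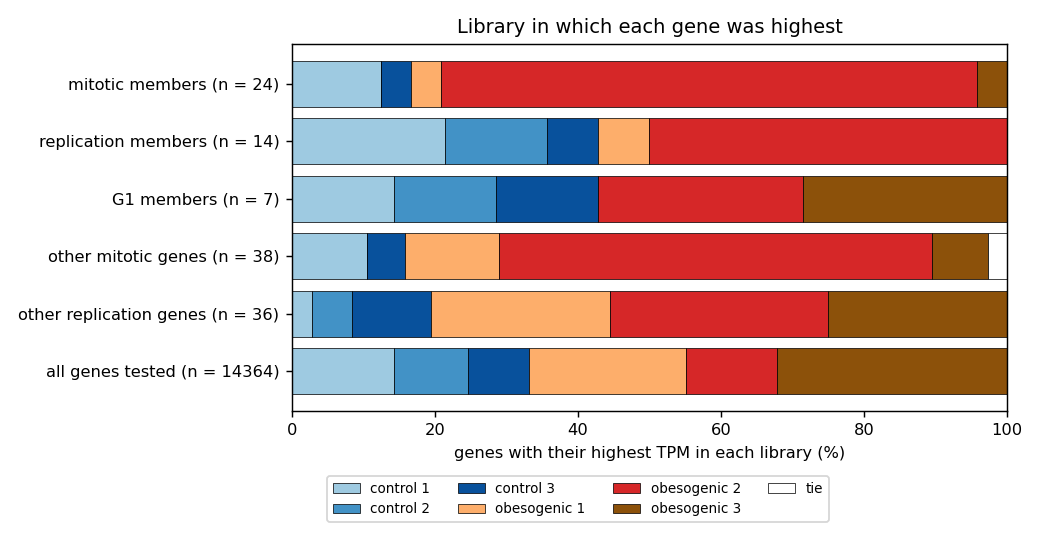
Share of genes with their highest TPM in each of the 6 libraries, for the mitotic, replication and G1 members, 2 further lists and all genes tested (n beside each bar). Obesogenic library 2 (red) takes 18 of 24 mitotic and 7 of 14 replication members but 12.7% of all genes tested.

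Promoters of mitotic members carried CHR letters (TTTGAA or TTCGAA on either strand), marked in capitals in Top2a (chr11:99024190-99024439, minus strand) and, with 1 E2F match, in Cdk1 (chr10:69352913-69353162, minus strand).
Top2a: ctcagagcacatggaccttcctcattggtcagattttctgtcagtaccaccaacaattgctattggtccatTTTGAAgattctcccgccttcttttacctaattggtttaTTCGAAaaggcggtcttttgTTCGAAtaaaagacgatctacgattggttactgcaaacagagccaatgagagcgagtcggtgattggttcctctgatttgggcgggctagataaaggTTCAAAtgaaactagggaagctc
Cdk1: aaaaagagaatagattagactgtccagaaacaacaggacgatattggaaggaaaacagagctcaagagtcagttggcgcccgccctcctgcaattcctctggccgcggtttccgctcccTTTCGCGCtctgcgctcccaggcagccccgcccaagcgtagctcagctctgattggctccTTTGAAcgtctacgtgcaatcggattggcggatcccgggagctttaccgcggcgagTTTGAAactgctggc
Top2a holds CHR letters beginning 179, 140, 120 and 23 bases before the start. Cdk1 holds them 71 and 15 bases before the start, and its TTTCGCGC begins 131 bases before it. CHR letters were found in 16 of 20 mitotic promoters (80%), 2 of 12 replication promoters (16.7%) and 16% of the promoters of tested genes. CCAAT, on either strand and not capitalised, was in 18 of the 20 mitotic promoters (90%) and in 42.9% of those of tested genes, and all 16 mitotic promoters with CHR letters also held CCAAT. In 15 of the 16, CHR letters began within 50 bases before the start or after it. This position was counted for mitotic members only, so no share of other promoters stands beside it. Of the members and other cell cycle genes with a promoter, the 65 with CHR letters had a median log2 difference from the control mean of 0.68 in library 2 and the 69 without them 0.24. In libraries 1 and 3 these medians were 0.03 and -0.11 with CHR letters and 0.17 and 0.00 without. Split by E2F letters instead, the 29 genes with them had medians of 0.27, 0.65 and -0.15 in libraries 1, 2 and 3. The 105 genes without E2F letters had 0.06, 0.44 and 0.00. Whether CHR letters add to the mitotic role of these genes was not tested. A match of letters describes the sequence and not the binding of a factor.

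**Figure D4:**
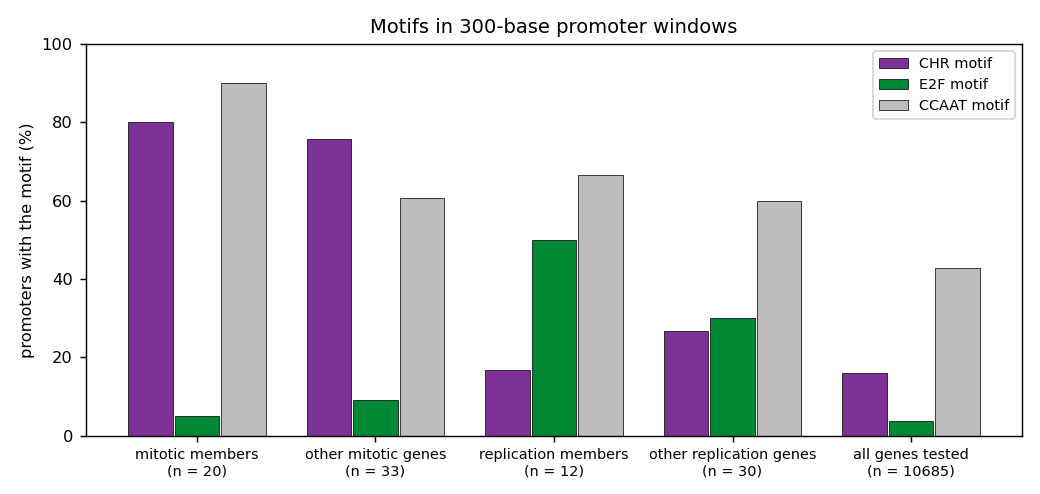
Share of 300-base promoter windows with CHR, E2F or CCAAT letters on either strand (n, promoters matched). CHR letters are in 80% of mitotic and 16.7% of replication members' windows, and E2F letters in 5% and 50%.

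To compare the groups within each library, the median log2(TPM + 1) of the 14 replication members was subtracted from that of the 24 mitotic members. The values were -1.35, -1.52 and -1.56 in control and -1.21, -0.58 and -1.09 in obesogenic libraries. Mitotic genes were below replication genes in every library, by least in library 2, and the diets did not overlap. The means were -1.48 ± 0.11 and -0.96 ± 0.34 (SD, n = 3), a difference of 0.52, with an exact two-sided permutation p of 0.1, the smallest that 3 against 3 can give. With coding transcripts only the difference reversed to -0.12 (exact p = 0.7), so its direction depends on which transcripts are summed. Without library 2 it was 0.33. Summed over genes, the mitotic members held 52.7, 40.1 and 36.9 TPM in control libraries against 41.5, 138.7 and 38.8 TPM in obesogenic libraries. The replication members summed to 159, 161 and 137 TPM in control libraries against 141, 177 and 125 TPM in obesogenic libraries. The mitotic sum of library 2 thus exceeded every other library, and that of the replication genes did so by a small margin in TPM as listed. Rescaled to the same total without immunoglobulin genes, the replication members summed to 154, 157 and 131 TPM in control libraries. In obesogenic libraries they then summed to 137, 208 and 122 TPM, a wider margin. The mitotic members were then at 51.1, 39.0 and 35.4 TPM against 40.4, 163 and 38.1 TPM.

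Markers of immune cells were high in the same library. The 14 B and plasma cell markers summed to 75749 TPM in obesogenic library 2 and to between 56.1 and 165 TPM in the other 5, almost all of it from Igkc, the immunoglobulin kappa constant region, at 73057 TPM. Of these markers 13 were highest in library 2, while Pax5, the factor that defines B cells, was listed at 0 there, without its principal transcript among those listed. The 13 T and NK cell markers summed to 402 TPM there against 7.62 to 26.2 TPM elsewhere, and all 13 were highest in library 2. The 11 microglia markers summed to 3609 TPM against 754 to 1199 TPM, with 8 highest in library 2. The 10 oligodendrocyte precursor markers, among them Olig1, Olig2 and Sox10, summed to 915 TPM in library 2 and to between 1208 and 1680 TPM elsewhere. None of them was highest in library 2. Oligodendrocyte markers were lowest in that library as well, at 27147 TPM, so these sums do not show the level of precursors alone. Obesogenic library 3 was close to it for oligodendrocyte markers, at 28398 TPM. No marker of these precursors was at 0 in library 2. The part of these cells in the values of the mitotic genes was not tested. Rescaled to the same total without immunoglobulin genes, 19 of the 24 mitotic and 7 of the 14 replication members were highest in library 2, as were 21.8% of all genes tested. With that scaling 31 of the 47 members lay above all controls in library 2 and 1 below, against 38.6% and 26.7% of all genes tested.

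**Figure D5:**
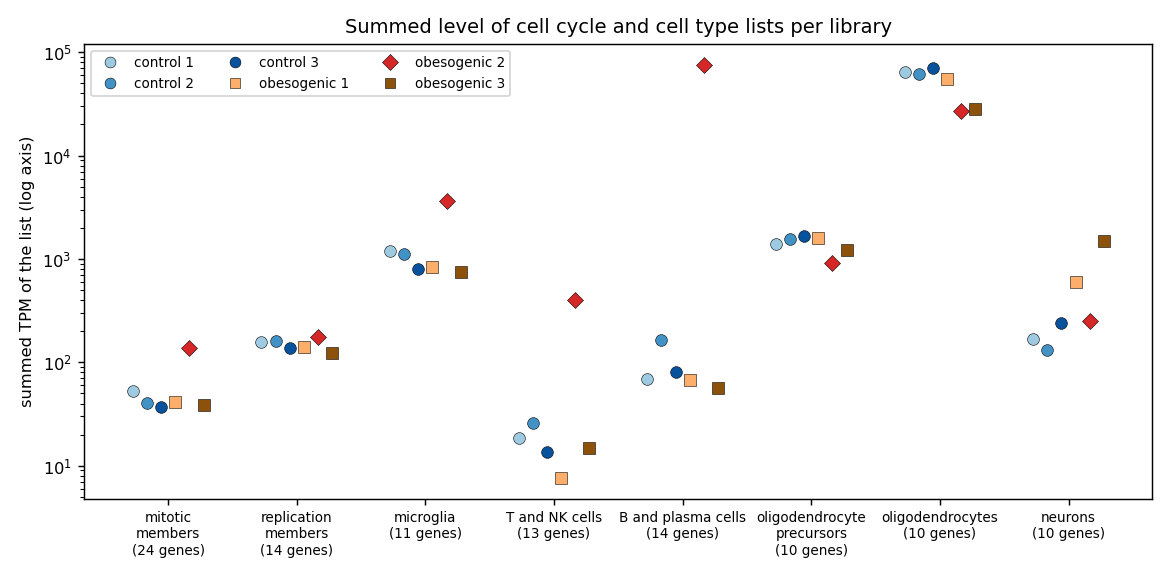
Summed TPM of the mitotic and replication members and of 6 cell type marker lists in each library, on a log axis. Obesogenic library 2 is highest for the mitotic members (138.7 TPM) and for microglia, T and NK, and B and plasma cell markers, and lowest for oligodendrocyte precursor markers (915 TPM).

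The sums depend on which transcripts of a gene were listed. Of the 47 members, 25 had every coding transcript of the GENCODE mouse annotation in the table, matched by Ensembl identifier, and 15 lacked any transcript ranked as principal. The 15 are Ccnd2, Cdk4, E2f1, Mcm3, Mcm6, Mcm7, Rrm2, Tyms, Ccnb1, Aurka, Birc5, Cdc20, Ube2c, Nusap1 and Cenpe. For these genes a low value may leave out the main product. Among the 14 mitotic members with every coding transcript listed, 13 were highest in library 2, all but Kif23, and 10 were at least 2 times the next library. Among the 8 such replication members, 5 were highest there. Of the 6 mitotic members not highest in library 2, 5 lacked the principal transcript. The most abundant transcript was coding in 36 members, had a retained intron in 8, was subject to nonsense-mediated decay in 2 and was a processed transcript in 1. Retained-intron transcripts held 15.4% to 23.9% of the members' TPM per library and 6.69% to 8.40% of that of all genes tested.

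A further 118 cell cycle genes in 5 lists were read beside the members. Of these 89 were tested and 0 passed (limma, smallest adjusted p 0.359), with 6 higher and 4 lower at an unadjusted p under 0.05, where 857 and 718 of the 14364 genes tested were. Of the 118, 16 were higher and 6 lower without overlap between diets (8.88% and 7.45% of all genes tested), and apart from Spc24, Cdkn1a, Cdkn1b, Cdkn1c, Rb1, Foxm1 and Mybl2 the genes named from these lists were chosen for that separation. Their median log2 difference was 0.20, and 48 of the 118 were highest in obesogenic library 2 (12.7% of all genes tested). The 38 other mitotic genes had medians of -0.01, 0.70 and -0.04 in obesogenic libraries 1, 2 and 3, and 23 were highest in library 2, compared with 11 of 36 other replication genes. Spc24, a kinetochore subunit chosen after its values were seen, was at 21.4 TPM in library 2 and between 1.0 and 2.05 TPM elsewhere. Smc2, a condensin subunit, was instead at 4.73, 4.57 and 5.65 TPM in control libraries against 14.2, 8.06 and 10.01 TPM in obesogenic libraries, with the diets separate and library 1 highest (log2 difference 0.95, SE 0.30, limma adjusted p = 0.359). Nek2, a centrosome kinase, measured 0.727 ± 0.275 TPM with the control and 2.04 ± 1.37 TPM with the obesogenic diet (SD, n = 3; adjusted p = 0.558 by limma). Without obesogenic library 2 the log2 difference of Nek2 was 0.40. Of the replication genes, Dnmt1, the maintenance DNA methyltransferase, was at 5.20, 7.02 and 6.77 TPM in control libraries against 11.8, 10.6 and 12.1 TPM in obesogenic libraries (log2 difference 0.78, SE 0.26, limma adjusted p = 0.366). Orc5, an origin recognition subunit, was at 1.83 ± 0.840 against 3.65 ± 1.01 TPM (limma adjusted p = 0.515). Rpa3, which binds single-stranded DNA, was at 18.8 ± 1.58 against 14.7 ± 1.98 TPM (limma adjusted p = 0.629). For Dnmt1 and Orc5 the principal transcript was not listed.

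Inhibitors and regulators of the cycle did not pass either. Cdkn1c, the CDK inhibitor p57 of cells leaving the cycle, was at 214, 225 and 201 TPM in control libraries against 187, 75.1 and 119 TPM in obesogenic libraries. All obesogenic values were below the controls and library 2 was lowest (log2 difference -0.84, SE 0.32, limma adjusted p = 0.420; -0.51 without it). Meningeal and endothelial markers were lower in the same libraries, and their part in this value was not tested. Cdkn1a, the inhibitor p21, was at 28.9, 82.6 and 62.0 TPM in control libraries against 47.8, 104 and 89.3 TPM in obesogenic libraries, and Cdkn1b, the inhibitor p27, was between 1.66 and 3.55 TPM in all 6. Both overlapped between diets. Ccnd3, the third D-type cyclin, was at 218, 258 and 222 TPM in control libraries against 160, 180 and 118 TPM in obesogenic libraries (log2 difference -0.62, SE 0.21, limma adjusted p = 0.377). It was separate and lower, unlike Ccnd1 and Ccnd2. Cdc25b, a phosphatase that activates Cdk1, was at 13.1 ± 2.69 against 5.88 ± 2.93 TPM (SD, n = 3; limma adjusted p = 0.366), and its relative Cdc25a at 6.28 ± 0.533 against 8.48 ± 0.832 TPM (limma adjusted p = 0.647). Skp2, the ubiquitin ligase subunit that marks p27 for destruction, was at 2.30, 1.77 and 1.85 TPM in control libraries against 4.51, 3.12 and 4.34 TPM in obesogenic libraries, again without overlap (log2 difference 0.74, SE 0.30, limma adjusted p = 0.442).

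Of the transcription regulators, Rb1, the retinoblastoma protein, measured 27.4 ± 6.06 TPM with the control and 30.0 ± 4.74 TPM with the obesogenic diet (SD, n = 3; adjusted p = 0.878 by limma). Lin9, a MuvB core subunit shared by DREAM and its activating counterpart, was at 2.75, 3.33 and 2.62 TPM in control libraries against 4.59, 4.52 and 4.83 TPM in obesogenic libraries (log2 difference 0.54, SE 0.28, limma adjusted p = 0.534). Mybl2, the B-Myb factor that joins MuvB to switch on mitotic genes, was at 1.26, 0.439 and 0.928 TPM in control libraries against 1.88, 3.51 and 1.08 TPM in obesogenic libraries, with library 2 highest. Foxm1, the forkhead factor of mitotic genes, was at 1.33, 0.860 and 0.941 TPM in control libraries against 0.545, 0.560 and 0.213 TPM in obesogenic libraries and was not tested. All 3 obesogenic values of Foxm1 were below the controls, as for 7.45% of all genes tested. Unlike most mitotic members it was thus low in library 2, as in the other obesogenic libraries, and its principal transcript was not listed.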

How the data were processed

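Optic nerve RNA was measured in 6 libraries, 3 per diet. Per the labels' protocols, polyA RNA was used, with a NucleoSpin RNA Plus XS extraction and SMART-Seq mRNA library preparation. The authors deposited TPM per transcript. Tools named in the submitters' processing notes, with no role stated, are STAR 2.7.9a, featureCounts 2.0.3, Subread and DRAGEN. Which of them gave TPM, and the build and annotation behind it, is not given in the sources used here.

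Repeated lines of a transcript (415 transcripts, always with the same values) were counted once, and TPM was summed over the 109383 transcripts to 35850 genes. The listed TPM summed to between 788456 and 832193 per library, so some transcripts of each library were not analysed here. TPM keeps no depth, and no counting interval was computed. The 14364 genes that reached 1 TPM in 3 or more libraries were fitted as log2(TPM + 1) by limma 3.58.1 under R 4.3.3 (lmFit, eBayes with trend, two-sided, 3 libraries against 3), with Benjamini-Hochberg adjustment over all of them and a threshold of 0.05. Single values per library were compared with an exact permutation test. The fit was tested on simulated data with independent noise for each gene. No simulated library stood apart from the others, so the simulation does not show how the fit treats such a library. Members were compared with RefSeq promoters (GRCm38.p6) by symbol and with GENCODE transcripts by identifier. The reference build may differ from that of the deposited table, so no coordinate was joined to it. Figures were drawn with matplotlib 3.10.9.

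The members and lists were chosen with earlier results of these data known. All members may be named. Of the 5 other cell cycle lists, the genes named were those past the threshold, up to 2 per list and direction of smallest unadjusted p whose libraries do not overlap between diets, and Cdkn1a, Cdkn1b, Cdkn1c, Rb1, Foxm1 and Mybl2. Spc24 is outside this rule and was chosen after its values were seen. Marker lists of 9 cell types were summed. Alternatives changed the pseudocount, filter, scaling, weights, eBayes settings, block, transcript types and libraries. The alternatives restricted to members with every coding transcript listed, and all alternatives of the mitotic median and of the share highest in library 2, were chosen after seeing the data.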

Additional observations from a re-analysis of the deposited data

How the results depend on the processing

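No member passed the threshold in limma under any of the 19 alternatives, with smallest adjusted p-values among members from 0.0808 to 0.606 over the settings that keep all libraries and from 0.159 to 0.771 with 1 library left out. Across all genes, 1 passed as reported, 0 without the filter on low values, 2 after quantile normalization, 2064 with array weights (1505 higher, 559 lower), 0 with protein-coding transcripts only, and 0 to 860 with 1 library left out, the 860 being without obesogenic library 2. The cause of the rise with array weights was not tested. The members' median log2 difference, 0.16 as reported, ranged from 0.10 to 0.36 with all libraries and from -0.04 to 0.33 with 1 library left out. The mitotic median, 0.42, whose alternatives were added after seeing the data, ranged from 0.24 to 0.56 and from 0.02 to 0.58. The lowest value of both came without obesogenic library 2. Quantile normalization moved the median of all genes tested from 0.08 to -0.06. The share of mitotic members highest in library 2, 75% as reported, was 70.8% to 92.9% over the other settings and 75% to 83.3% with another library left out, and has no value without that library. The mitotic minus replication difference, 0.52, became -0.12 with coding transcripts only (exact p = 0.7) and ranged from 0.33 to 0.64 with 1 library left out. Of 34 members tested without obesogenic library 2, the sign of the log2 difference turned in 13, among them Cdk1, Ccnb2, Top2a, Cenpa, Cdca8, Kif20a and Tk1. Single members followed over all alternatives were Aurkb, Ccna2, Ccne1, Cdk2, Cdk4, Kif11 and Mcm6, which kept their sign wherever they had a value. Aurkb, at 0.88, was 0.24 without that library and 0.06 with array weights.

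Sample numbers were not shown to pair the diets, since same-numbered samples had correlations of deviations of 0.0079, 0.18 and 0.13 for numbers 1, 2 and 3, and obesogenic library 1 correlated more with control library 3 (0.11) than with its own number. With the replicate block, 1 gene passed across the table, higher, and 0 members did (smallest limma adjusted p 0.451). The members' median was 0.16 with the block. TPM carries no depth, so the precision of low mitotic values cannot be stated, and 11 of the 47 members were below the filter.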
